A study of Mus musculus with 6 samples.

Results

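The mitosis and spindle genes are a set of 45 genes, taken by symbol, whose products carry a cell from the G2 phase through chromosome segregation to the separation of the daughter cells. All 45 had a row among the 52550 genes of the count table, and all 45 passed the filter on low counts. RNA was sequenced from mouse alveolar epithelial type II (AT2) cells, which make surfactant and act as progenitors of the alveolar epithelium, in 3 control libraries and 3 libraries labelled Grp78 knockout. Grp78, encoded by Hspa5, is the main chaperone of the endoplasmic reticulum. Every mouse was of strain C57BL/6 and carried Sftpc+/creERT2, a tamoxifen-inducible Cre expressed from the Sftpc (surfactant protein C) locus, together with Grp78f/f, the floxed Grp78 alleles. The genotype label gives the controls as without Tmx (tamoxifen) and the libraries labelled knockout as with Tmx, so tamoxifen and the knockout cannot be told apart. The day label places all 6 samples, controls included, 10 days after Tmx, at odds with what the genotype label says of the controls. The labels state no ages. After dispase digestion of the lungs, magnetic beads removed CD45-bearing cells and then captured cells bearing EPCAM. No label says that replicates came from separate animals, so the p-values cover only the differences among these libraries, which may be technical.

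Library totals ranged from 110770711 to 149520306 counts. Levels are given as CPM, the counts scaled to a common library size with TMM factors. A positive log2 fold means more RNA in the libraries labelled knockout, its standard error is given as SE, and "called" means that edgeR's quasi-likelihood test, adjusted over 18849 genes, gave a p under 0.05. Hspa5 itself was at 925 to 1355 CPM in controls and 3809 to 9262 CPM in the libraries labelled knockout. Counts per gene do not separate the floxed exons, so this rise checks no recombination, and every direction below is between libraries as labelled. Of 14 AT2 markers, all were expressed and all 14 were called lower in the libraries labelled knockout. The libraries numbered 3 stood apart, and same-numbered libraries deviated together from their group means. The deviations of a library numbered 3 correlated negatively with those of libraries numbered 1 and 2 in the other group. Centring on group means brings this about once the libraries numbered 3 go together, so it adds no evidence of pairing. Between numbers 1 and 2 the pairing was less clear. Control 1 with library 2 labelled knockout gave 0.154 and control 2 with library 1 gave 0.171, against 0.2 for the libraries numbered 2. In bulk RNA, fewer cells of a type and less RNA per cell cannot be told apart.

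Most AT2 cells of a healthy adult lung do not divide, and they re-enter the cell cycle after injury. As a cell nears mitosis, the transcription factor FOXM1 and the MYB-MuvB complex switch on a shared group of genes. Cyclin B and CDK1 then trigger entry, the spindle assembly checkpoint holds anaphase until every kinetochore is attached, and the anaphase-promoting complex with CDC20 destroys cyclin B and securin. In resting cells the DREAM complex holds the same genes down through a promoter element called the cell cycle genes homology region (CHR), often accompanied by CCAAT boxes bound by NF-Y.

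The promoters are shown first, since these elements are the known link between genes of the set. RefSeq promoter sequences (build GRCm38.p6, 250 bases before to 50 after the start) were matched for 37 members; Foxm1, Ccna2, Cdc25c, Aurkb, Incenp, Smc4, Tpx2 and Kif20a had no entry. The sequences of Cdc20 and Ccnb2 are printed as called members with both motifs, that of Bub3 as an uncalled member with both, and that of Pttg1 as an uncalled member with neither in the window searched. Capitals mark a CHR (TTTGAA or TTCGAA on either strand) or a CCAAT box (CCAAT on either strand), and each sequence runs 5′ to 3′ on the gene's own strand. The promoters lie at chr4:118437294-118437593, minus strand (Cdc20), chr9:70421505-70421804, minus strand (Ccnb2), chr7:131560120-131560419, plus strand (Bub3) and chr11:43425932-43426231, minus strand (Pttg1). The Pttg1 window lies wholly inside the gene as annotated in GENCODE M21, which starts at 43426251 on the minus strand. Bases upstream of that start were not searched. The windows of Kif2c and Kif4 also lie inside their annotated genes.
Cdc20: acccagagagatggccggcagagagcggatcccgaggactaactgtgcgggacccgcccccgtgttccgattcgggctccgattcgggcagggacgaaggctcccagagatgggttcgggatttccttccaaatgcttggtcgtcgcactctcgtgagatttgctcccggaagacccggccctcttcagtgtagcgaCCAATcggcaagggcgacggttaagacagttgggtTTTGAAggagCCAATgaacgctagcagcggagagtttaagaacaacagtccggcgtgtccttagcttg
Ccnb2: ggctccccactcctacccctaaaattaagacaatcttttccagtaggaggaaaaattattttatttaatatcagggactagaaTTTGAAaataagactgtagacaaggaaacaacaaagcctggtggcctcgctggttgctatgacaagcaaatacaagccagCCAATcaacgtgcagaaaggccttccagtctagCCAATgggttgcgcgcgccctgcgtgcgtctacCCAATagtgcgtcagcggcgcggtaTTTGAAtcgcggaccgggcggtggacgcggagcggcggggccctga
Bub3: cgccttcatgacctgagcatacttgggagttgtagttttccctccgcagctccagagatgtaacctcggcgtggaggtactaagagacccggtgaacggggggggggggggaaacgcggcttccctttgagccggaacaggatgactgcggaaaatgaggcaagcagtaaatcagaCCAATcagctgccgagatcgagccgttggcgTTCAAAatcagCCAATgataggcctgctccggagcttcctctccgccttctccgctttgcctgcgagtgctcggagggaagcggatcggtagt
Pttg1: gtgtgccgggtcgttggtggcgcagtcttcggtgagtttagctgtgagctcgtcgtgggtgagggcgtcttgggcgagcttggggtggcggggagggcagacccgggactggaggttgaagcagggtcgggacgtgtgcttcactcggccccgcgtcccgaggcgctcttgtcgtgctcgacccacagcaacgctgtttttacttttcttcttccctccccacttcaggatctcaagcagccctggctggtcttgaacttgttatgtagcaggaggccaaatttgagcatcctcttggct

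A CHR was present in 29 of the 37 member promoters (78.4%), against 21.7% of the 27025 genes in the promoter table and 16.9% of the genes that were tested for expression. A CCAAT box was present in 28 (75.7%), against 41.1% of the table. Both occurred in 26 members (70.3%), against 8.61% of the table. Counted over 40 promoter entries, since Ect2, Bub3 and Prc1 have 2 overlapping entries each, the CHR nearest the start lay within 50 bases of it in 28 of the 32 entries that held one. In Cdc20 it began 18 bases before the start, and in Ccnb2 at base 5 after it. Of the 67 CCAAT boxes, 66 lay upstream of the start, with a median position of -78. Adjacent boxes in Ccnb2 were 33 bases apart on both occasions, but those in Cdc20 were 45 and those in Bub3 42 bases apart. Of 36 pairs of adjacent boxes over all entries, 7 were 30 to 36 bases apart. These are matches of letters and not shown to be bound sites. Holding both motifs did not separate the members by their call: they were found in 18 of 27 called members with a promoter entry and in 8 of 10 that were not called.

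**Figure D1:**
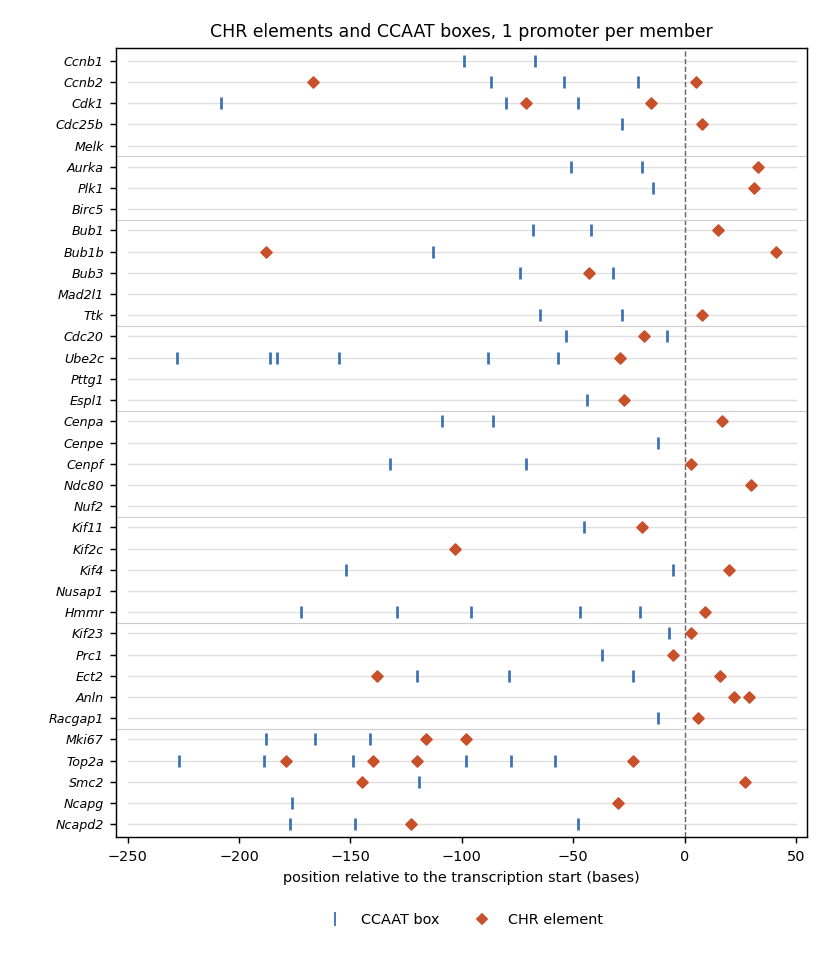
Positions of CHR elements (diamonds) and CCAAT boxes (bars), as the first base of each match, from 250 bases before to 50 bases after the start, in 1 promoter for each of 37 members grouped by role. Most CHR elements sit close to the start and nearly all CCAAT boxes lie upstream of it.

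Genes of mitosis were higher in the libraries labelled knockout across nearly every step of cell division. Of the 45 members, 31 were called higher and 0 lower in edgeR, with 36 and 0 where p under 0.05 was taken without adjustment, and DESeq2 and limma-voom called 34 and 35 higher and 0 lower. Over all genes tested, 18% were called higher and 18.8% lower, so that 48.9% of all calls were higher, against 82.2% with scaling by library totals. The median member was 3.18-fold higher (log2 fold 1.67, against 0.02 for the median gene tested), and the called members ran from 1.82-fold for Smc2 to 4.84-fold for Cdk1. In 35 members every library labelled knockout lay above every control, a separation seen in 25% of all genes tested, while 51.6% separated in one direction or the other. Of the called members, 30 rose at least 2-fold, against 8.23% of all genes, and 9 at least 4-fold, against 3.02%. The members are spread over 16 chromosomes.

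The 3 controls differed among themselves. The members summed to 260 CPM in control 1, 255 CPM in control 2 and 418 CPM in control 3, and to 540, 571 and 703 CPM in libraries 1, 2 and 3 labelled knockout. Much of the sum in controls comes from abundant members that were not called. Bub3, Pttg1, Cdc25b and Smc4 were at 57.3, 35.6, 24.7 and 24.1 CPM in control 1. Control 3 was the highest control for 43 of 45 members, the exceptions being Bub3 and Pttg1, while 41.5% of all genes tested were highest there. The median member was 2.60 times as high in control 3 as in the mean of controls 1 and 2. In 35 members control 3 lay above both other controls and below all 3 libraries labelled knockout. The share of all genes with this order was not counted. It can be at most the 25% in which every library labelled knockout lay above every control. Library 3 labelled knockout was likewise the highest of its group for 39 members, against 44.8% of all genes. Within the same-numbered libraries the median member differed by a log2 value of 1.98 for number 1, 2.13 for number 2 and 1.08 for number 3, and 43, 44 and 43 members were higher in the library labelled knockout.

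The count of called members rests on which libraries are compared. Without control 1, control 2, library 1 or library 2 labelled knockout it was 18, 16, 19 and 20. Without control 3 it was 39, with a median log2 fold of 2.22 and 14.1% of all genes called higher. The loss of calls was not confined to the members. Without control 1, 2293 of all genes were called higher, against 3391 in the reported fit. What the replicate number marks is not stated in the labels. With that number as a block, 40 members were called higher, against 21.9% of all genes, and 1, Cdc25b, lower. All 31 called members kept their call with the block. In each of 14 alternative fits, 15 members stayed called: Ccna2, Ccnb2, Cdk1, Melk, Aurka, Plk1, Birc5, Mad2l1, Ttk, Cdc20, Ube2c, Espl1, Cenpa, Ect2 and Ncapg. The other 16 called members lost their call without at least 1 library, at an adjusted p of up to 0.136.

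**Figure D2:**
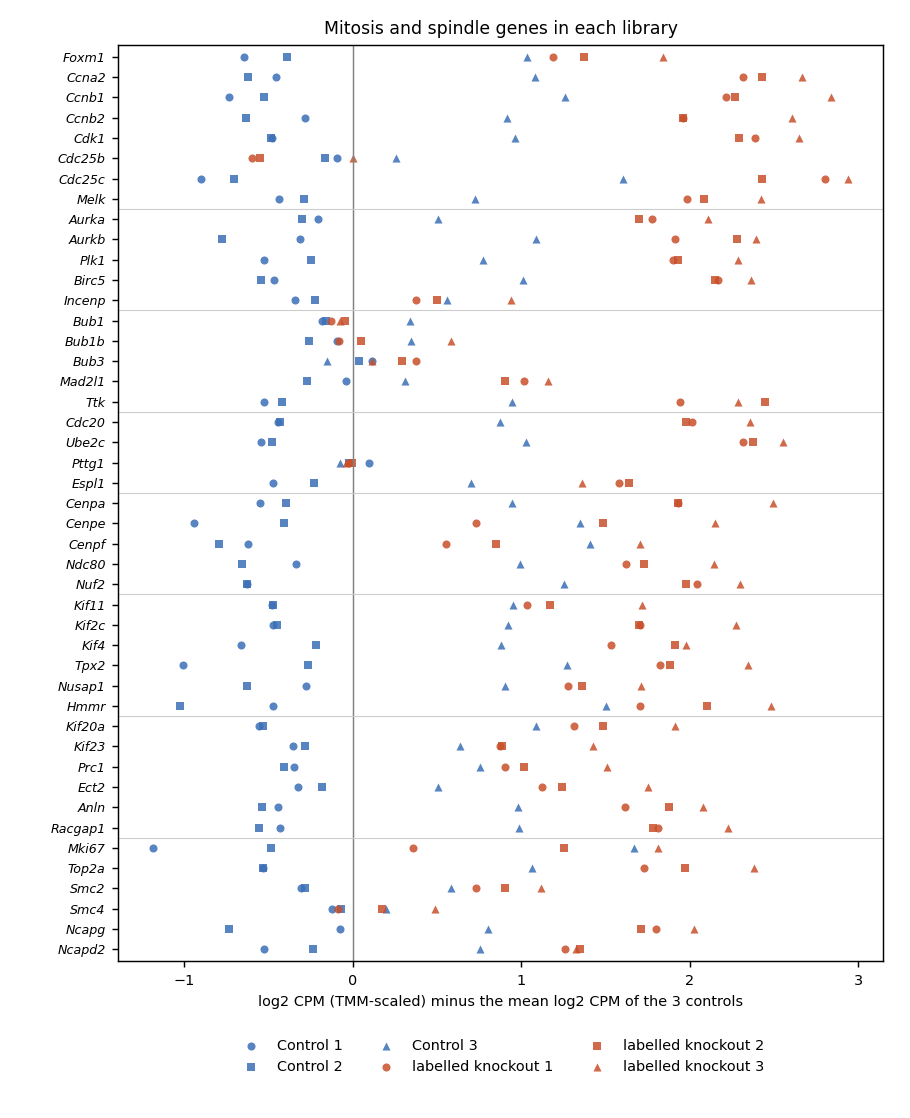
Level of each member in each library, as log2 CPM minus the mean log2 CPM of the 3 controls, with members grouped by role between grey lines. Control 3 (blue triangles) sits between controls 1 and 2 and the libraries labelled knockout (orange) for 35 members, while Bub1, Bub1b, Bub3, Pttg1, Smc4 and Cdc25b lie close to 0.

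Among the 8 genes of mitotic entry, 6 were called higher. Cdk1, the kinase that drives entry into mitosis, was at 2.19, 2.18 and 5.97 CPM in controls 1, 2 and 3 and at 16, 15.0 and 19.2 CPM in libraries 1, 2 and 3 labelled knockout. Even control 3 lay well below the lowest of these, and Cdk1 had the largest fold of all members (log2 fold 2.28, SE 0.405, edgeR adjusted p = 0.00627). Ccnb1, which encodes cyclin B1, the partner of CDK1, was at 1.29, 1.49 and 5.13 CPM in controls and 9.98, 10.4 and 15.3 CPM in the libraries labelled knockout (log2 fold 2.17, SE 0.535, edgeR adjusted p = 0.0196). Ccnb2, which encodes cyclin B2, Ccna2, which encodes cyclin A2, and Melk, a kinase gene expressed in dividing cells, rose 4.14-fold, 4.78-fold and 4.22-fold. Cdc25c, a phosphatase gene whose product activates CDK1, was the scarcest member, at 0.123, 0.140 and 0.697 CPM in controls and 1.60, 1.24 and 1.76 CPM in the libraries labelled knockout. It was called (edgeR adjusted p = 0.0301), with as few as 14 counts in a control.

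The other entry genes were not called. Foxm1, the transcription factor gene of the G2 and M programme, was at 1.65, 1.97 and 5.28 CPM in controls and 5.88, 6.68 and 9.26 CPM in the libraries labelled knockout. Its groups did not overlap, but control 3 came close to library 1 labelled knockout (log2 fold 1.29, SE 0.444, edgeR adjusted p = 0.057, which the replicate block lowered to 0.00774). Cdc25b, which encodes the phosphatase that starts CDK1 activation at the centrosome, stood alone in having lower values in each same-numbered pair. It was at 24.7, 23.6 and 31.6 CPM in controls and 17.4, 18.1 and 26.4 CPM in the libraries labelled knockout, with overlapping groups (log2 fold -0.37, SE 0.187, edgeR adjusted p = 0.158, which the block lowered to 0.0127; it was 0.0132 without library 3 labelled knockout).

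Of 5 genes for mitotic kinases and the chromosomal passenger complex, 4 were called higher. Aurka, the centrosomal Aurora kinase gene, was at 2.31, 2.16 and 3.79 CPM in controls and 9.11, 8.66 and 11.5 CPM in the libraries labelled knockout. It had the lowest adjusted p of the members (log2 fold 1.82, SE 0.240, edgeR adjusted p = 0.00177), and control 3 was 1.70 times the mean of the other controls, less than for most members. Plk1, the Polo-like kinase gene, was at 1.61, 1.94 and 3.94 CPM in controls and 8.64, 8.81 and 11.3 CPM in the libraries labelled knockout (log2 fold 1.94, SE 0.330, edgeR adjusted p = 0.0046).

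Aurora B, survivin and INCENP sit together in the passenger complex, which corrects faulty attachments at the centromere. Aurkb was at 0.895, 0.650 and 2.36 CPM in controls and 4.19, 5.39 and 5.84 CPM in the libraries labelled knockout (log2 fold 1.98, SE 0.458, edgeR adjusted p = 0.0143). Birc5, which encodes survivin, was at 1.11, 1.05 and 3.09 CPM in controls and 6.87, 6.78 and 7.88 CPM in the libraries labelled knockout (log2 fold 2.04, SE 0.411, edgeR adjusted p = 0.00881). Both were separate between the groups. Incenp, the scaffold gene of the complex, was at 4.53, 4.93 and 8.48 CPM in controls and 7.45, 8.13 and 11 CPM in the libraries labelled knockout. Control 3 exceeded libraries 1 and 2 labelled knockout there, and Incenp was not called (log2 fold 0.57, SE 0.264, edgeR adjusted p = 0.126, which the block lowered to 0.0119).

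The spindle assembly checkpoint was divided, with 2 of 5 genes called higher. Ttk, the gene of the checkpoint kinase MPS1, was at 0.254, 0.273 and 0.704 CPM in controls and 1.40, 2.00 and 1.79 CPM in the libraries labelled knockout (log2 fold 2.07, SE 0.424, edgeR adjusted p = 0.009). Mad2l1, which encodes the inhibitor of CDC20, rose 2.02-fold (edgeR adjusted p = 0.0034). Bub1, a kinetochore kinase gene, was at 11.8, 12.1 and 17.0 CPM in controls and 12.3, 13 and 12.8 CPM in the libraries labelled knockout. Its highest value was a control (log2 fold -0.10, SE 0.150, edgeR adjusted p = 0.617), and the sign turned with scaling by library totals (0.14) and without control 3 (0.081).

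Bub1b, which encodes the checkpoint protein BUBR1, ranged from 8.26 to 12.6 CPM in controls and from 9.34 to 14.8 CPM in the libraries labelled knockout, and it was not called (log2 fold 0.19, edgeR adjusted p = 0.518). Bub3, a checkpoint protein gene also needed outside mitosis, was at 57.3, 54.3 and 47.6 CPM in controls and 68.6, 64.8 and 57.3 CPM in the libraries labelled knockout. Control 3 was here the lowest library, unlike its place for most members, and the lowest library labelled knockout met the highest control. Bub3 was not called (log2 fold 0.26, SE 0.107, edgeR adjusted p = 0.092), although it was with the block (0.0133). Per length of its exons, control Bub3 was at 7.57 CPM per kb, Bub1 at 3.13 and Bub1b at 2.35, against a median of 0.699 over the 45 members.

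Of 4 genes that trigger anaphase, 3 were called higher. Cdc20, the activator of the anaphase-promoting complex, was at 7.03, 7.10 and 17.6 CPM in controls and 38.6, 37.7 and 49.0 CPM in the libraries labelled knockout. The groups were far apart (log2 fold 1.98, SE 0.370, edgeR adjusted p = 0.0074), and per length of exon Cdc20 was the most abundant member in the libraries labelled knockout, at 22.4 CPM per kb. Ube2c, the ubiquitin-conjugating enzyme gene of that complex, was at 1.85, 1.94 and 5.51 CPM in controls and 13.5, 14 and 15.9 CPM in the libraries labelled knockout (log2 fold 2.22, SE 0.423, edgeR adjusted p = 0.008). Espl1, which encodes separase, the protease that cuts cohesin, rose 2.71-fold.

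Pttg1, which encodes securin, the inhibitor of separase, stood apart from its partners. It was at 35.6, 32.7 and 31.5 CPM in controls and 32.7, 33.1 and 32.4 CPM in the libraries labelled knockout. The 6 values lay within a narrow band (log2 fold -0.02, SE 0.0825, edgeR adjusted p = 0.837). Scaling by library totals turned the sign and gave a call (log2 fold 0.24, edgeR adjusted p = 0.0458), and that scaling moved the median of all genes by 0.26. At 16.6 CPM per kb Pttg1 was the most abundant member in controls.

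Of 5 genes for the centromere and kinetochore, 3 were called higher. Cenpa, the centromeric histone H3 gene, was at 1.26, 1.40 and 3.57 CPM in controls and 7.07, 7.07 and 10.4 CPM in the libraries labelled knockout (log2 fold 1.98, SE 0.410, edgeR adjusted p = 0.0099). Ndc80 and Nuf2, whose products together form part of the microtubule-binding NDC80 complex, rose 3.16-fold and 3.53-fold. The genes of CENP-F and CENP-E, large proteins of the outer kinetochore, had overlapping groups. Cenpf was at 1.82, 1.61 and 7.4 CPM in controls and 4.10, 5.02 and 9.11 CPM in the libraries labelled knockout (log2 fold 0.75, SE 0.622, edgeR adjusted p = 0.376, which the block lowered to 0.0333). Cenpe, a kinesin gene of the kinetochore, likewise missed the threshold (log2 fold 1.22, SE 0.633, edgeR adjusted p = 0.17, which the block lowered to 0.0103).

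Of 6 genes for spindle motors and microtubule binders, 4 were called higher. Kif2c, which encodes a microtubule-depolymerising kinesin of the centromere, was at 0.877, 0.894 and 2.30 CPM in controls and 3.97, 3.95 and 5.90 CPM in the libraries labelled knockout (log2 fold 1.76, SE 0.404, edgeR adjusted p = 0.0135). Kif4, a chromosome-bound kinesin gene, Tpx2, the activator of Aurora A, and Nusap1, a microtubule-bundling gene, rose 3.18-fold, 3.28-fold and 2.47-fold. Kif11, the gene of the motor that pushes the spindle poles apart, was at 2.16, 2.17 and 5.80 CPM in controls and 6.15, 6.76 and 9.87 CPM in the libraries labelled knockout. Control 3 nearly reached library 1 labelled knockout, and Kif11 was not called (log2 fold 1.17, SE 0.414, edgeR adjusted p = 0.0619, which the block lowered to 0.00686). Hmmr, a spindle-associated hyaluronan receptor gene, behaved alike in its values, with separate groups and no call (log2 fold 1.70, edgeR adjusted p = 0.0733, which the block lowered to 0.0156).

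Of 6 genes for the central spindle and cytokinesis, 5 were called higher. Racgap1 and Kif23 encode the subunits of centralspindlin, which recruits the RhoA activator ECT2 to the midzone. Racgap1 was at 3.18, 2.92 and 8.51 CPM in controls and 15.1, 14.8 and 20.1 CPM in the libraries labelled knockout (log2 fold 1.77, SE 0.417, edgeR adjusted p = 0.0168). Its partner Kif23 was at 3.60, 3.78 and 7.15 CPM in controls and 8.44, 8.52 and 12.3 CPM in the libraries labelled knockout (log2 fold 1.01, SE 0.291, edgeR adjusted p = 0.0302). Ect2, Anln, the gene of the contractile ring protein anillin, and Prc1, which bundles midzone microtubules, rose 2.55-fold, 3.23-fold and 2.09-fold. Kif20a, a midzone kinesin gene, just missed the threshold (log2 fold 1.37, edgeR adjusted p = 0.0535, which the block lowered to 0.0082). It shares 29.3% of its exon bases with Cdc23 on the opposite strand, and the counting is not known to use strand.

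Of 6 genes for chromosome structure and proliferation, 4 were called higher. Top2a, the topoisomerase gene whose product untangles sister chromatids, was at 6.32, 6.32 and 19.2 CPM in controls and 30.3, 35.8 and 47.7 CPM in the libraries labelled knockout (log2 fold 1.84, SE 0.457, edgeR adjusted p = 0.0201). Smc2, a core condensin gene, was at 4.66, 4.74 and 8.65 CPM in controls and 9.56, 10.8 and 12.5 CPM in the libraries labelled knockout (log2 fold 0.86, SE 0.251, edgeR adjusted p = 0.0313). The condensin I subunit genes Ncapg and Ncapd2 rose 3.28-fold and 2.30-fold. Smc4, which encodes the partner of SMC2 in every condensin, was at 24.1, 25.1 and 30.1 CPM in controls and 24.8, 29.7 and 37 CPM in the libraries labelled knockout. Its groups overlapped, and it was not called (log2 fold 0.21, SE 0.159, edgeR adjusted p = 0.342).

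Mki67, the gene of the proliferation antigen Ki-67, spread widely inside both groups. It was at 2.35, 3.81 and 17.0 CPM in controls and 6.86, 12.7 and 18.8 CPM in the libraries labelled knockout. Control 3 was 5.52 times the mean of the other controls, the largest such ratio of the 45 members, and lay above libraries 1 and 2 labelled knockout. Mki67 was not called (log2 fold 0.73, SE 0.730, edgeR adjusted p = 0.468). It was called with the block (log2 fold 1.13, edgeR adjusted p = 0.0453) and without control 3 (log2 fold 2.04, edgeR adjusted p = 0.0218), and without the other libraries, left out singly, the adjusted p was 0.425 to 0.78.

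**Figure D3:**
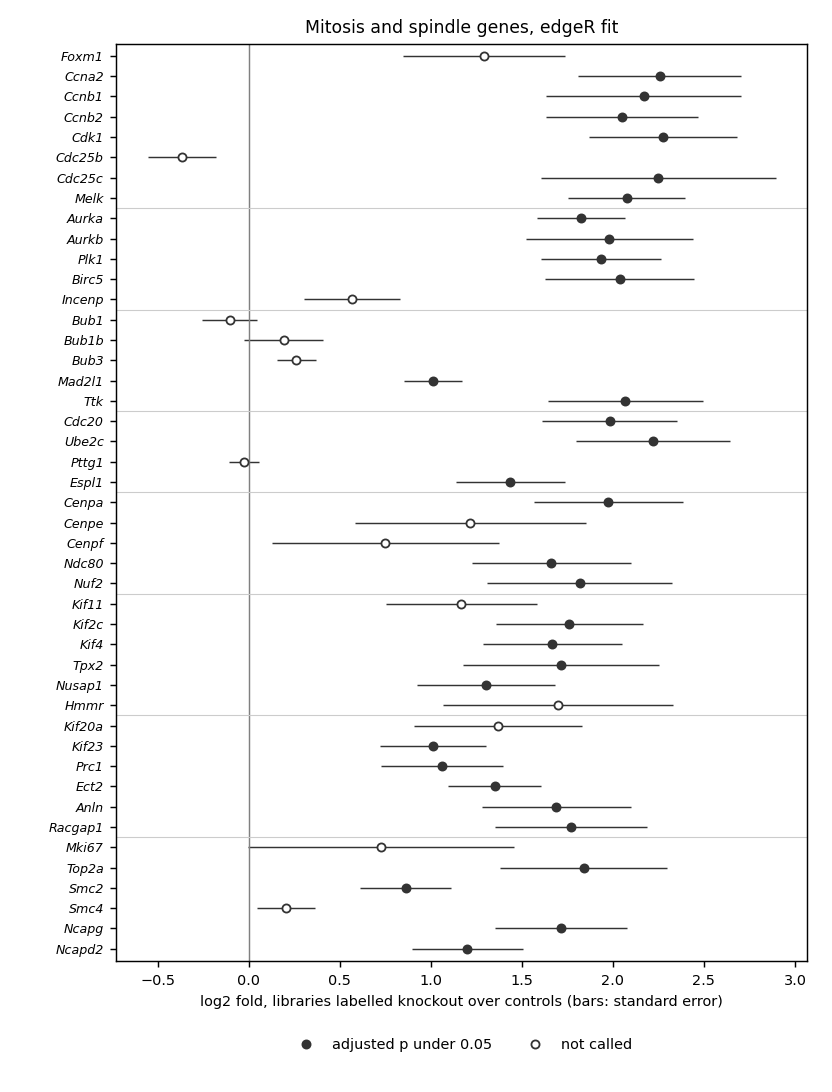
Log2 fold of each member with its standard error, libraries labelled knockout over controls; filled points were called and open points were not. The 31 called members lie between 0.86 and 2.28, and the 14 others include Cdc25b, Bub1 and Pttg1 with values below 0.

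Some members cannot be counted cleanly. Exons of 14 members overlap those of another gene, with the largest shares in Kif20a and in Ube2c (22.8%, with Tnnc2). For 11 members the longest transcript matched transcripts of other genes elsewhere at 90% identity or more over at least 300 bases, among them Ccnb1 (Ccnb1-ps, 99.2%), Plk1 (Plk-ps1, 93.5%) and Cdc20 (Gm7856, 93.7%). How reads shared with such copies were assigned is not stated in the labels.

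Genes outside the set were read from lists of names that were chosen with earlier results of these data known. Rises were common in several of these lists of cell division genes but not in all. Of 37 further kinetochore and centromere genes, 25 were called higher and 2 lower (median log2 fold 1.03). Cenpm, Cenpw and Ska1 rose by log2 folds of 2.42, 2.06 and 2.05, and Cenpu and Zw10, the latter also at work in membrane traffic, fell by 0.77 and 0.69 on the log2 scale. Of 33 further kinesin, spindle and centriole genes, 15 were higher and 2 lower (median 0.66). Kif14, Fam83d and Stil rose by 2.27, 1.92 and 1.89, while Numa1 fell by 0.80 and Kif1c by 0.67. Those latter 2 calls ended with scaling by library totals. Without control 1, control 2, library 1 or library 2 labelled knockout, 6, 4, 8 and 8 of these genes were higher, and the call of Kif14 ended in each of these fits. That of Fam83d ended without control 2.

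Of 23 further regulators of the G2 to M transition, 17 were higher and 1 lower (median 1.43). Psrc1, a spindle protein gene that is also a known p53 target, was at 0.509, 0.480 and 0.735 CPM in controls and 10.4, 9.87 and 8.48 CPM in the libraries labelled knockout, with control 3 close to its group (log2 fold 4.06, SE 0.208, edgeR adjusted p = 0.000155). Gtse1, which restrains p53 in G2, rose by 2.77 and Cdkn3, a phosphatase gene acting on CDKs, by 2.32. Wee1, the kinase gene that holds CDK1 inactive, fell by 0.29 (edgeR adjusted p = 0.0388), a call that ended without any 1 of 5 libraries and with scaling by library totals.

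Among all genes tested 18% were called higher and 18.8% lower, and the next lists are read against those shares. Of 17 genes for the anaphase-promoting complex and its partners, 2 were higher and 3 lower (median 0.05), which is near the shares over all genes. There were 5 higher and 4 lower under the replicate block, and 7 higher and no falls left with scaling by library totals. Anapc15 rose by 0.58 and Anapc7 by 0.38, and Anapc13 and Cdc26 fell by 0.44 and 0.41, and Anapc4 by 0.30. All 5 calls ended without library 2 labelled knockout. There were 1 higher and 1 lower without control 2, 1 and 2 without library 1 labelled knockout, and 4 and 4 without library 3 labelled knockout. Of 17 cohesin genes and other condensin genes, 4 were higher and 7 lower (median -0.24). The rises were in Cdca5, which encodes the mitotic cohesin protector sororin (2.16), Ncaph (1.83), Esco2 (1.5) and Ncapg2 (1.48), and the falls were in Pds5b, Stag2, Nipbl, Smc3, Smc1a, Esco1 and Wapl, whose log2 folds ran from -0.90 to -0.25. Scaling by library totals left the falls of Pds5b and Stag2 called, ended the other 5 and turned the sign of Wapl.

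Counts for upstream regulators were also near the shares over all genes. Of 20 genes for MuvB, E2F and pocket proteins, 5 were higher and 2 lower (median 0.11), with 7 and 4 under the block, 10 and 1 with scaling by library totals, and 3 and 1 without control 1, control 2 or library 2 labelled knockout. The atypical repressors E2f8 and E2f7 rose by 1.91 and 1.71, and E2f1, an S-phase activator, by 1.52. The call of E2f8 (edgeR adjusted p = 0.0489) held without control 3 and ended without any other library left out singly. Rbl2, which encodes p130, the pocket protein of the DREAM complex, was at 62.3, 66.4 and 69.1 CPM in controls and 29.2, 30.4 and 42.0 CPM in the libraries labelled knockout (log2 fold -0.96, SE 0.146, edgeR adjusted p = 0.00304). E2f5 fell by 0.28, which ended with scaling by library totals. Of 11 G1 cyclin and kinase genes, Ccne1 (2.19) and Cdk4 (0.32) were higher, and Ccnd3 (-0.75) and Ccnd2 (-0.36) lower. Scaling by library totals gave 6 higher and 1 lower, and leaving out control 1, control 2 or library 1 labelled knockout gave 1 and 1.

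As a sum, DNA replication genes rose with less difference between the controls. Of 39, 27 were called higher and the other 12 were not called; without control 2, 16 were called. The median log2 fold was 0.70, with Rrm2 at 2.28, Orc1 at 1.88 and Cdc6 at 1.83. Their sum was 455, 438 and 502 CPM in controls and 726, 723 and 624 CPM in the libraries labelled knockout, so library 3 labelled knockout was the lowest of its group here and the highest for the mitotic sum. Single genes did not all follow the sum. In controls 1, 2 and 3, Rrm2 was at 3.12, 2.68 and 7.24 CPM, Cdc6 at 0.719, 0.835 and 1.94 CPM and Orc1 at 0.281, 0.259 and 0.406 CPM. Rrm2 was also highest in library 3 among those labelled knockout. Whether the 2 sets differ was not tested. Of 16 brakes on the cell cycle, 5 were higher and 5 lower, or 3 and 3 without control 1 or control 2. Cdkn1a, the CDK inhibitor gene induced by p53, was at 84.9, 81.6 and 66.0 CPM in controls and 485, 466 and 251 CPM in the libraries labelled knockout (log2 fold 2.37, SE 0.256, edgeR adjusted p = 0.000931). This brake and the mitotic sum were thus both higher in the libraries labelled knockout. Within each group the order differed, since Cdkn1a was lowest and the mitotic sum highest in the library numbered 3. Ccng1, another p53 target, rose by 1.61, and Ccng2, a gene active in resting cells, fell by 1.54.

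**Figure D4:**
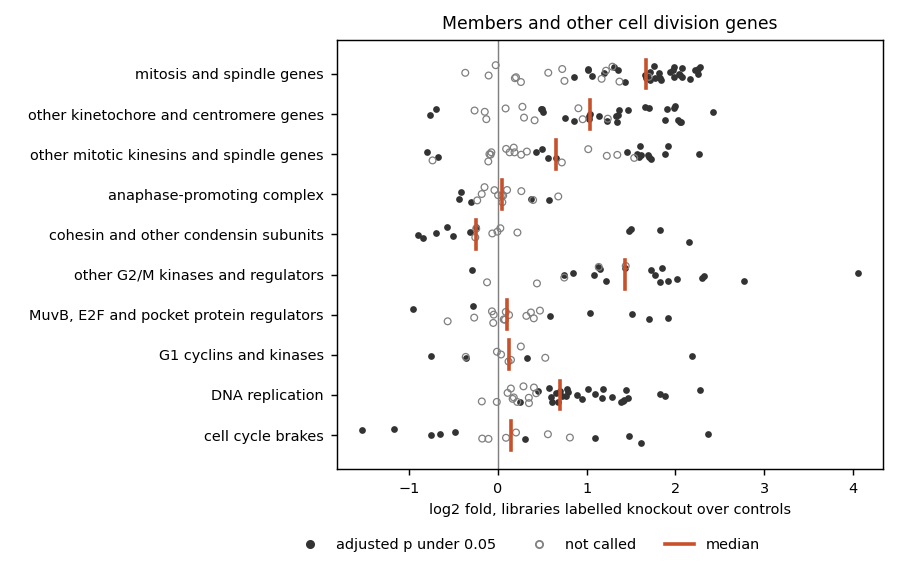
Log2 fold of each gene in the mitosis and spindle set and in 9 other lists of cell division genes; filled points were called, open points were not, and the bar is the list's median. The medians run from -0.24 for cohesin and other condensin genes to 1.67 for the mitosis and spindle genes.

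Markers of other cell types differed in how they ran across the libraries. Of 15 fibroblast and smooth muscle markers, 14 were called higher and Myh11 was not called, and their sum was 267, 262 and 630 CPM in controls and 1286, 1380 and 1402 CPM in the libraries labelled knockout. The sum, most of which comes from collagen genes, has the order of the mitotic sum, but the single markers share it only in part. Control 3 lay between the other controls and the libraries labelled knockout for 10 of the 15, and not for Acta2, Tagln, Des, Myh11 and Inmt. Library 3 labelled knockout was the highest of its group for 4 of the 15, against 39 of the 45 members. Col1a1 was at 36.8, 39.1 and 151 CPM in controls and 297, 323 and 404 CPM in the libraries labelled knockout, but Acta2 was at 3.87, 3.78 and 3.69 CPM in controls and 20.1, 20.8 and 9.10 CPM in the libraries labelled knockout. Every one of the 15 had counts in all libraries. Mesothelial markers (6 of 6 called higher) summed to 265 to 317 CPM in controls, lowest in control 3, and to 462 to 611 CPM in the libraries labelled knockout. Krt19, the most abundant of them, was at 208, 206 and 149 CPM in controls 1, 2 and 3. The low sum in control 3 follows this 1 gene, and control 3 was the highest control for 4 of the 6 markers. Control 3 lay between the other controls and the libraries labelled knockout for 4 of the 6, and not for Wt1 and Krt19. Library 3 labelled knockout was the highest of its group for 1 of the 6.

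Leukocyte and macrophage markers summed to 18.3 to 34.6 CPM in controls, to 23.0 and 24.2 CPM in libraries 1 and 2 labelled knockout and to 196 CPM in library 3 labelled knockout. Of 21 in the table, 19 were tested and 2 called higher, C1qc and Mrc1; Marco and Cd3e were at 0 in at least 1 library. The call of C1qc ended with the replicate block (edgeR adjusted p = 0.0533), and those of both genes ended without any 1 of the 3 controls. Without library 3 labelled knockout, 27 members were called higher. That fit leaves out every other difference of this library too, so it is no test of the part of leukocytes. Endothelial markers summed to 531 to 593 CPM in controls and 528 to 911 CPM in the libraries labelled knockout, with 1 of 11 called. Club and ciliated airway markers, of which 3 of 11 were called higher (Tmem212, Ccdc153 and Dynlrb2), had a summed level of 57340, 54514 and 31396 CPM in controls. The sum was 34319, 36390 and 32935 CPM in the libraries labelled knockout. Most of it comes from Scgb1a1, which was not called (log2 fold -0.51, edgeR adjusted p = 0.156), so the sum does not describe the 3 called genes. AT1 markers, 1 of 11 called higher and 4 lower, summed to 2412 to 2678 CPM in controls and 1677 to 1719 CPM in the libraries labelled knockout. Erythroid markers, 1 of 7 called lower, summed to 419 to 654 CPM in controls and 321 to 1355 CPM in the libraries labelled knockout. AT2 markers summed to 145716 to 169456 CPM in controls and 53880 to 70921 CPM in the libraries labelled knockout. The part of these other cells in the mitotic result was not tested.

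**Figure D5:**
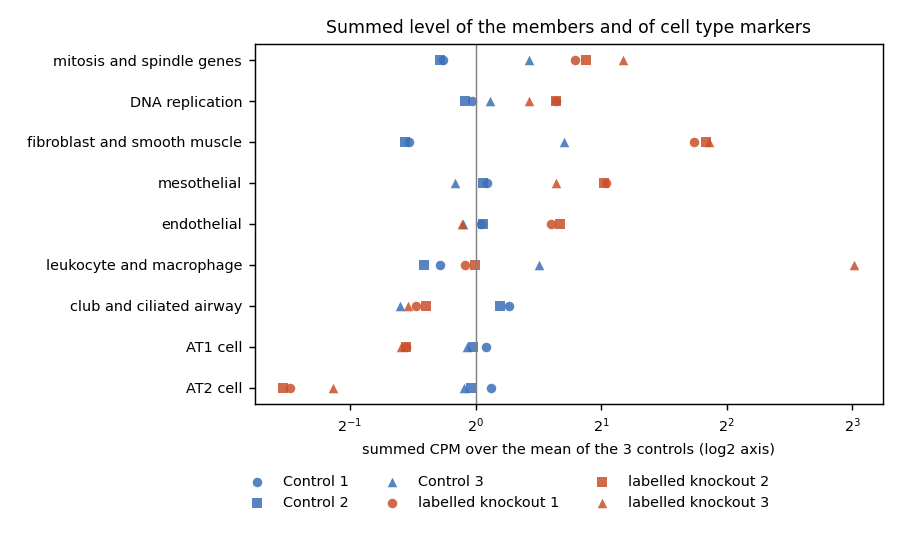
Summed CPM of the members, of DNA replication genes and of cell type markers in each library, over the mean of the 3 controls on a log2 axis. The summed fibroblast and smooth muscle markers follow the same order of libraries as the members, with control 3 in between, as a sum and not for each marker. The leukocyte markers are by far highest in library 3 labelled knockout, and among the controls they are highest in control 3.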

How the data were processed

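The authors deposited raw counts per gene symbol; the submitters' processing notes name mm10 and edgeR 3.7. Aligner, counter and annotation: not given in the sources used here. Counts of 2 were 1.63 to 1.76 times as common as counts of 1, as when both mates are counted, so counting error exceeds what the counts imply.

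Genes were kept by filterByExpr, scaled by TMM and tested with edgeR 4.0.16 (quasi-likelihood, robust, group only) in R 4.3.3; p-values were Benjamini-Hochberg adjusted over 18849 genes. SE is the log2 fold over the square root of F. The scripts were tested on simulated data. Alternatives used DESeq2 1.42.0, limma-voom 3.58.1, other scalings and filters, the replicate block and leaving out libraries. Deviations from group means correlated at 0.35, 0.2 and 0.329 between same-numbered libraries, so the numbers were taken as pairs from the data; the labels do not say what they mark. Every pair of libraries in a group differed by more than sampling noise (8.52 to 179 as chi-square per gene, with counts halved).

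Members and lists were chosen with earlier results of these data known. Per-library values are given for the largest and smallest fold of each role and for 15 preset members; of the other lists, mainly the 3 largest called folds and minority calls of 3 or fewer. Additional examples, such as Col1a1 and the cohesin falls, were chosen after their values were seen. Gene lengths and overlaps came from GENCODE M21.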

Additional observations from a re-analysis of the deposited data

How the results depend on the processing

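The members' count was 31 in the reported fit, 33 to 36 with other scalings, DESeq2 or limma-voom, 33 with the filter of 1 CPM in 3 libraries, 21 with no filter, 41 with the replicate block and 16 to 39 with 1 library left out. The members' median log2 fold was 1.67, and 1.36 to 2.22 with 1 library left out. The count over all genes was 6938, 10581 without both libraries numbered 3 and 3706 to 8548 with 1 library left out; the count over the 9 other lists was 126, and 76 to 136 with 1 library left out. Scaling by library totals moved the share of calls that were higher from 48.9% to 82.2%. The log2 fold of Bub1 changed sign with library totals (0.14) and without both libraries numbered 3 (0.088), and ran from -0.21 to 0.081 with 1 library left out. That of Pttg1 changed sign with library totals (0.24) and upper-quartile factors (0.0496), and ran from -0.0667 to 0.0164 with 1 library left out; that of Bub1b ran from -0.0373 to 0.38. The cause was not tested. The block ended no call of a member and added 10. The share of member promoters with both motifs was 56.8% in the 150 bases nearest the start, against 2.4% of the table. The scarcest member, Cdc25c, had 14 counts in control 1.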

Other observations

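The promoter motifs were also read in tested genes that are not members. Of 442 such genes with a CHR in the 150 bases nearest the start and a CCAAT box, 24.7% were called higher and 18.6% lower in edgeR, with a median log2 fold of 0.13. Of 434 with such a CHR and no CCAAT box, 18.2% were called higher and 17.7% lower. Of 4978 with a CCAAT box and no such CHR, the shares were 18.8% and 19.9%. Of 7119 with neither, 17.5% were called higher and 20.5% lower, with a median of -0.0023. Only the members were taken out, so each class can hold other cell division genes. The differences between the classes were not tested.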
